A study of Mus musculus with 18 samples.

Results

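The genes described here are the carriers that move organic anions, organic cations and drugs across hepatocyte membranes: the Slco and Slc22a uptake families and the Abcb and Abcc families of ATP-driven transporters. They were taken by symbol from the deposited table of counts, leaving out Abcb11 and pseudogene symbols. This gave 59 members among 28030 gene identifiers. Of the 59, 38 had enough counts to be tested, 15 had counts too low to be tested, and 6 had a count of 0 in every library. The 15 low members had between 0.8 and 113 counts in total over the 18 libraries and never exceeded 0.445 CPM (counts scaled to a common library total, with library sizes adjusted by the TMM method) in a library. The tested members were 7 of 15 Slco genes, 5 of 7 organic cation and carnitine carriers, 6 of 13 organic anion carriers, 3 of 5 other Slc22a genes, 3 of 4 plasma membrane Abcb genes, 5 of 5 mitochondrial and lysosomal Abcb genes, 8 of 8 Abcc export pumps and 1 of 2 sulfonylurea receptors. Slc22a6 and Slc22a8, the main organic anion carriers of the kidney, were among the members too low to be tested.

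RNA was sequenced from hepatocytes of wild-type C57BL/6J males aged 12 weeks on normal chow. Pericentral (PC) and periportal (PP) hepatocytes were separated with digitonin, a detergent that, given during liver perfusion, opens the cells of 1 zone and leaves those of the opposite zone to be isolated. Each zone was sampled in fed mice (M0h), after an 8 h fast (M8h) and after a 24 h fast (M24h), with 3 libraries in each of the 6 groups. All mice had spent 3 days on a schedule with an overnight fast of 16 h, and had 20% sucrose in their water on the day itself. Fed mice were killed 4 h into refeeding at clock hour 13. The 8 h group was killed at hour 21 and the 24 h group at hour 13 of the following day. The 8 h mice were thus not sampled at the clock hour of the fed and 24 h mice. In every comparison with the 8 h group, fasting time and clock hour cannot be told apart. Nothing in the labels says whether equal replicate numbers share a mouse, and p-values then measure the spread between these samples, which may be partly technical.

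Hepatocytes take up organic anions, bilirubin, bile acids, hormones and drugs from sinusoidal blood through Slco carriers (organic anion transporting polypeptides), and organic cations, carnitine and smaller anions through Slc22a carriers. Inside the cell many of these compounds are conjugated. ATP-driven pumps of the Abcb and Abcc families then export them. They pass across the canalicular membrane into bile (Abcc2, P-glycoprotein) or across the basolateral membrane back into blood (Abcc3, Abcc4). Abcb4 moves phosphatidylcholine into bile. Some family members work elsewhere, such as Abcb6, Abcb8 and Abcb10, which are known from mitochondria, and Abcb9, a lysosomal peptide transporter.

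Libraries held 1.84e+07 to 2.64e+07 estimated counts. Summed over 4 pericentral markers (Cyp2e1, Cyp1a2, Glul, Oat), the 9 PC libraries had 9310 to 18300 CPM and the 9 PP libraries 420 to 2040 CPM. Summed over 4 periportal markers (Cyp2f2, Hal, Gls2, Sds), they had 278 to 1790 CPM and 3130 to 5410 CPM. The median log2 zone difference (PP over PC) of the periportal markers was 3.59 when fed, 3.13 after 8 h and 1.83 after 24 h. For the pericentral markers it was -3.87, -3.65 and -3.73. In PC all 4 periportal markers were called higher at 24 h than when fed, beside 10.8% of all genes. All 8 markers were called in the labelled direction in every state except Glul at 24 h (edgeR adjusted p = 0.0623). The library M24hPC replicate 2 stood apart, with 111 CPM of Glul where the other libraries of its group had 928 and 707 CPM. The shift was not limited to Glul. Oat was at 257 CPM against 1050 and 1160 CPM, and the pericentral sum at 10800 against 15400 and 18300 CPM. Its periportal sum was 1790 CPM against 869 and 806 CPM. This library is 1 of the 3 PC libraries in every 24 h zone comparison. The 18 markers of endothelial, Kupffer and stellate cells summed to 5.43 to 20.5 CPM in PC and 5.57 to 56.7 CPM in PP libraries. Of these markers, 4 of 5 tested endothelial and 3 of 6 Kupffer and leukocyte genes were called higher in PP averaged over states. Of the stellate cell and fibroblast genes 0 of 3 tested were called in that contrast. The sums were highest in M8hPP replicate 3 (56.7 CPM), M24hPP replicate 3 (41.8 CPM) and M24hPP replicate 2 (35.1 CPM), and a fit without these 3 marker-rich libraries, was chosen after the data were seen. That fit leaves 1 library in M24hPP, which is assumed to vary like the other groups. Among markers of cholangiocytes, the bile duct cells, 2 of 3 tested (Sox9, Spp1) were called higher in PP averaged over states. Their summed level over 6 markers was 19.3 to 37.6 CPM in PC and 32.8 to 56.7 CPM in PP, while Epcam was at 0 in all 18 libraries, Cftr was at 0 in 12 and Krt19 did not exceed 0.506 CPM.

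The members took a larger share of all counts in pericentral hepatocytes. They made up 0.391% to 0.545% of the counts of the 9 PC libraries and 0.222% to 0.308% of those of the 9 PP libraries, so the zones did not overlap. A large part of this difference came from Slco1b2, the member with most counts, with means of 1540 CPM in fed PC and 514 CPM in fed PP. In fed mice 14 of the 38 tested members were called between the zones (edgeR quasi-likelihood test, Benjamini-Hochberg adjusted p under 0.05 over all 12477 genes tested), 3 higher and 11 lower in PP. That is 36.8% of the members, beside 8.01% of all genes (3.89% higher, 4.13% lower). After 8 h 12 members were called (3 higher and 9 lower in PP, beside 7.14% of all genes, 3.72% higher and 3.42% lower), and after 24 h 8 were called (2 higher and 6 lower, beside 4.17%, 1.7% higher and 2.47% lower). Without the 3 marker-rich libraries 1 member was called at 24 h. With the zone difference averaged over the 3 states, 22 members were called, 4 higher and 18 lower in PP, beside 20.3% of all genes (10.3% higher, 9.96% lower). The median log2 fold change (PP over PC) of the members in that averaged contrast was -0.41, and over all genes 0.002. In bulk samples such as these, fewer cells of a type and less RNA per cell cannot be told apart.

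Zone calls in all 3 states in 1 direction were made for 6 members, beside 2.44% of all genes. Slco1b2, Slc22a3 and Abcc2 were among those higher in PC, and Slco2a1 and Abcc5 were higher in PP. In 5 members (among them Slco1b2, Slc22a3, Slc22a27 and Abcc2) all 9 PC libraries lay above all 9 PP libraries, beside 1.32% of all genes, and in 2 (Slco2a1, Abcc5) all 9 PP libraries lay above, beside 1.27% (2.59% in either direction). Within a state, the 3 PP and 3 PC libraries did not overlap in 4 higher and 17 lower members in fed mice (beside 28.3% of all genes), 4 and 13 after 8 h (23.9%) and 3 and 14 after 24 h (22.1%). Each call was repeated under other settings and with each library left out in turn. Of the 22 averaged calls 19 were kept in every such alternative. Of the single-state calls 6 of 14 in fed, 3 of 12 in 8 h and 3 of 8 in 24 h libraries were. Some averaged and 24 h calls were lost only without the 3 marker-rich libraries, a fit that leaves 1 library in M24hPP. Where a call is said to be kept in every alternative, that fit is included.

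**Figure D1:**
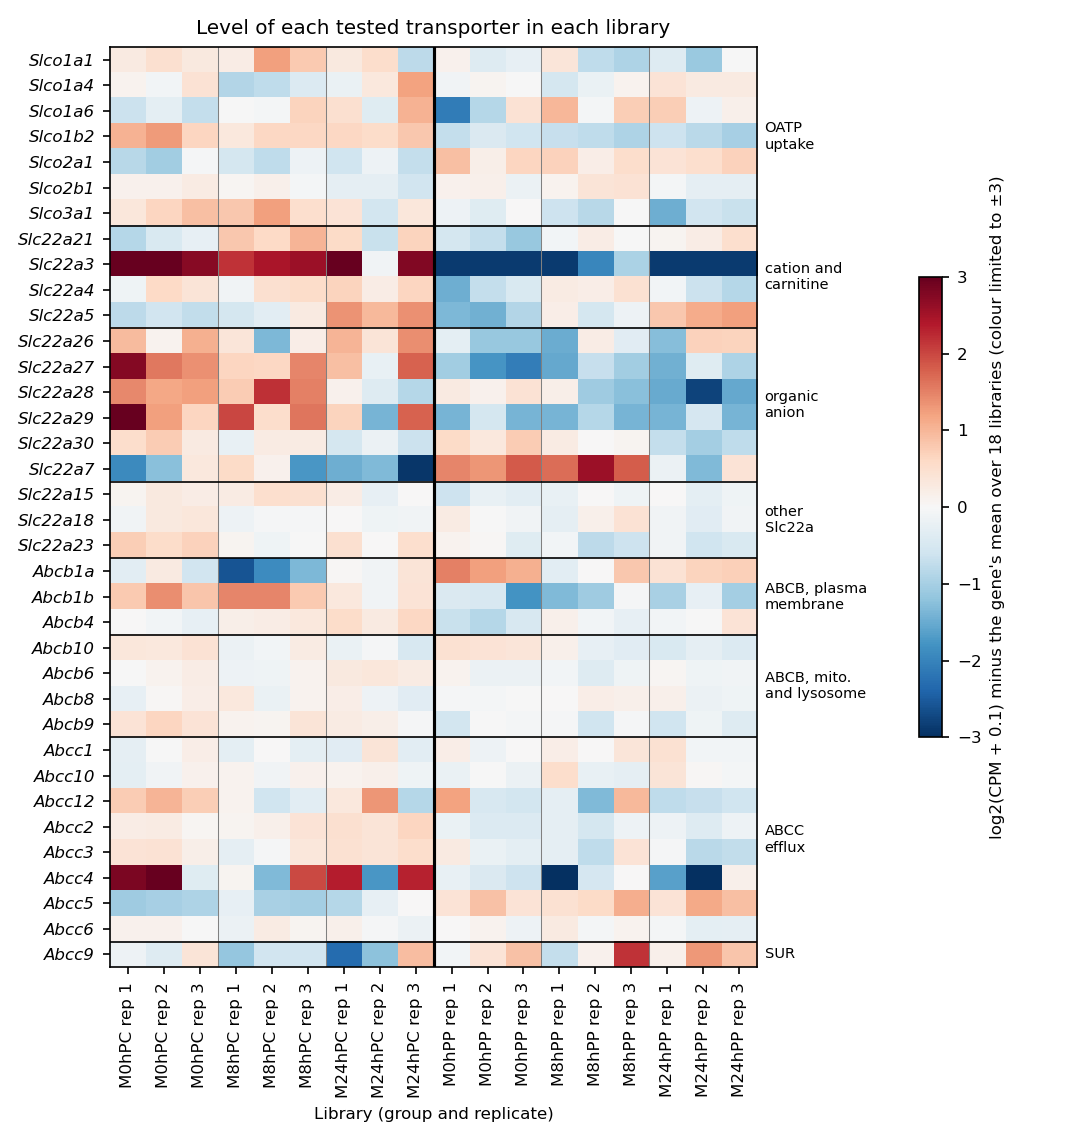
Log2 CPM of tested members (rows, grouped by role) in the 18 libraries (columns, grouped by zone and state), each row centred on its own mean so that colour shows the difference from that mean. Slco1b2 and Abcc2 are above their means in the PC columns and Slco2a1 and Abcc5 in the PP columns, while Slc22a5 rises and Slc22a30 falls towards 24 h in both zones.

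Between feeding states, the share of members called was not far from that of all genes. It was 10.5% to 18.4% in the comparisons with fed mice, beside 13.8% to 21.8% of all genes. Between 24 h and 8 h it was 15.8% in PC and 10.5% in PP, beside 9.71% and 7.46%. These gaps amount to few members and are not read as a trait of the members. Against fed mice, 4 of 38 were called after 8 h in PC (1 higher, 3 lower, beside 13.8% of all genes, 7.27% higher and 6.57% lower) and 5 in PP (3 higher, 2 lower, beside 14.4%, 7.56% and 6.85%). After 24 h, 7 were called in PC (2 higher, 5 lower, beside 21.8%, 10.8% and 11.1%) and 6 in PP (3 higher, 3 lower, beside 19.6%, 9.59% and 10%). The 8 h and 24 h comparisons of a zone share the same 3 fed libraries. Between 24 h and 8 h, 6 were called in PC (3 higher, 3 lower, beside 9.71%, 5.2% and 4.51%) and 4 in PP (1 higher, 3 lower, beside 7.46%, 3.22% and 4.24%). Without the 3 marker-rich libraries the PP calls numbered 3 for 24 h against fed and 0 for 24 h against 8 h. Members called at 24 h against fed in both zones in 1 direction numbered 5, beside 12.3% of all genes: Slc22a5 and Abcb4 rose, and Slc22a28, Slc22a30 and Abcb10 fell. The difference between zones in the fasting change was tested directly, and 0 members were called for 24 h (beside 0.016% of all genes) or 8 h (beside 0.0%) by edgeR or by DESeq2. At an unadjusted p under 0.05 there were 4 and 3 members. Libraries of 2 states did not overlap for 4 higher and 11 lower members between 8 h and fed PC (beside 32.2% of all genes), 5 and 8 between 24 h and fed PC (38.7%) and 6 and 6 between 24 h and 8 h PC (28.9%). In PP the counts were 5 and 3 (31.6%), 4 and 9 (36.9%) and 2 and 6 (25.4%).

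**Figure D2:**
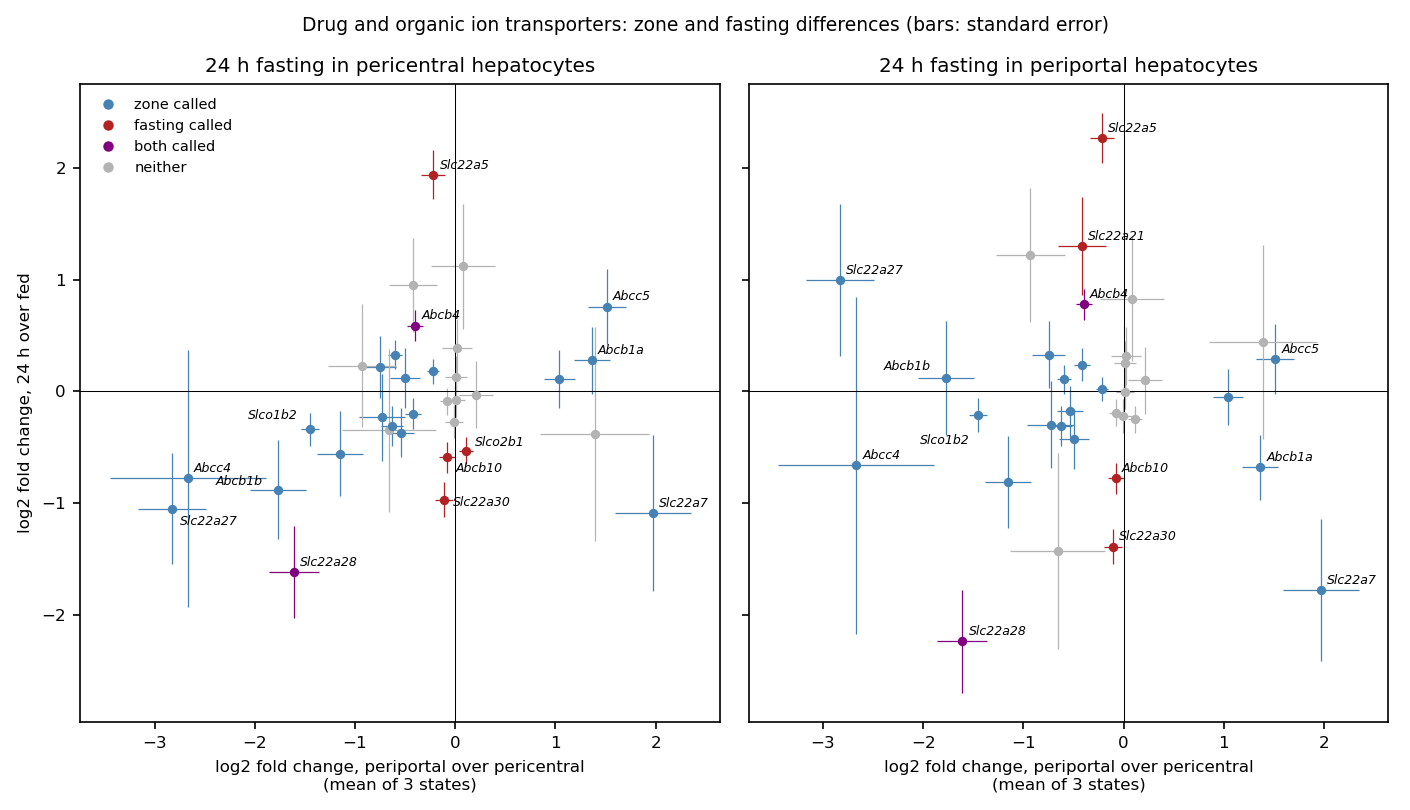
Zone difference averaged over states (x axis, log2 fold change PP over PC) against the 24 h fasting change (y axis, log2 fold change over fed) in PC (left) and PP hepatocytes (right), 1 point per tested member shown, with bars of 1 standard error and colour by call; both axes use the fed libraries. Slc22a5 lies highest in both panels, Slc22a28 is called on both axes, and Slc22a3 and Slc22a29 are not drawn because their PP groups had few or no counts.

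The bases before the transcription start are shown for 5 members with a call kept in every alternative: 3 that were higher in PC (Slco1b2, Slc22a3, Slc22a27), 1 higher in PP (Abcc5) and 1 that rose with fasting in both zones (Slc22a5). They are from RefSeq, build GRCm38.p6, 250 bases each, read 5′ to 3′ in the sense of the gene, with matches to searched motifs in capitals.
Slco1b2: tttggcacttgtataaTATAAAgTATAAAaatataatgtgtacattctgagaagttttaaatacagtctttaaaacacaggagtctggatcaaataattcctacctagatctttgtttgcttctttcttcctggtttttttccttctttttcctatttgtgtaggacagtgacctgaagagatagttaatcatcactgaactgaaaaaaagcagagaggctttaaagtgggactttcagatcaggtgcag
Slc22a3: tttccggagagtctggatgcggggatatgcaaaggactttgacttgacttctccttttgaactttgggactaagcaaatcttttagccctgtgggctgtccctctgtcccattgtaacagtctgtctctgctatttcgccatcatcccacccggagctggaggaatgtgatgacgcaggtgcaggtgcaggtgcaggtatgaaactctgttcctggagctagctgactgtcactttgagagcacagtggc
Slc22a27: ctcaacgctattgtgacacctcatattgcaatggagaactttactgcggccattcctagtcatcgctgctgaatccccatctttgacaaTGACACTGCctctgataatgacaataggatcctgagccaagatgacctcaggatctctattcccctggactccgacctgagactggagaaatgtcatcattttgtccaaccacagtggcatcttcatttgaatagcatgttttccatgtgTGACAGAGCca
Abcc5: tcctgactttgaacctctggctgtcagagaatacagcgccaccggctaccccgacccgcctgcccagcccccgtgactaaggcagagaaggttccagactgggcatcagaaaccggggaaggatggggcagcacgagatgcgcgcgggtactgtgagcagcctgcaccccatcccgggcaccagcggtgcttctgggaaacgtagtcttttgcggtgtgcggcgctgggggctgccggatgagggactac
Slc22a5: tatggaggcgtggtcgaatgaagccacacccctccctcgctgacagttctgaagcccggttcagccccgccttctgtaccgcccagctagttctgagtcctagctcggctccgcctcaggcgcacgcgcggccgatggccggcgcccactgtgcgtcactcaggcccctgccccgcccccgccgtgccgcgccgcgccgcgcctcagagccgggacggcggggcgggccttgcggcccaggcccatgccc

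These windows lie at chr6:141629268-141629517 on the plus strand (Slco1b2), and on the minus strand at chr17:12507705-12507954 (Slc22a3), chr19:7966028-7966277 (Slc22a27), chr16:20426395-20426644 (Abcc5) and chr11:53891704-53891953 (Slc22a5). They differed in base composition. The Slco1b2 window had a GC content of 33.6% and 0 CpG dinucleotides, and the Slc22a5 window 73.6% and 30 CpG. The Slc22a3, Slc22a27 and Abcc5 windows had 51.2%, 46.0% and 64.0% GC, against a median of 52.4% over all promoters (quartiles 45.2% and 61.2%). Motifs were searched on both strands. TATAAA, a search added after the data were seen, matched in the Slco1b2 window with first bases 234 and 227 bases before the start, and in 12.4% of the 32851 promoters of the table. TGACNNNGC, the antioxidant response core, matched in the Slc22a27 window at 161 and 11 bases before the start and in 10.2% of promoters. A match to it also stood 98 bases before the start of Abcc2 (TGACATAGC). Of the 48 members with a promoter entry, 8 held TGACNNNGC, 3 held CACGTG (6.02% of promoters), 1 held TTATGTAA (0.819%) and 6 held TATAAA. None of the 48 held the DR1 motif (a direct repeat with a spacer of 1 base) or the palindromic HNF1 motif, which were in 0.0335% and 0.00913% of promoters.

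Among Slco uptake carriers, Slco1b2 and Slco2a1 had opposite zone differences. Slco1b2 (ENSMUSG00000030236, chr6:141629518-141686646) takes up bilirubin, bile acids and drugs such as statins from blood. It had the highest level per length of all members, 467 CPM per kb of its longest coding transcript as the M0hPC mean. Its fed PC libraries had 1580, 1850 and 1200 CPM and its fed PP libraries 467, 570 and 505 CPM. The zones were also apart after 8 h (963, 1190 and 1180 CPM against 478, 456 and 406 CPM) and after 24 h (1180, 1130 and 1350 CPM against 501, 440 and 388 CPM). Over all states the lowest PC library (963 CPM) was above the highest PP library (570 CPM). On the log2 scale PP differed from PC by -1.59 when fed (SE 0.16, adjusted p = 1.19e-05 by edgeR), by -1.31 after 8 h and by -1.46 after 24 h. The 24 h call was lost without the 3 marker-rich libraries (-1.28, adjusted p = 0.0525). No fasting change of Slco1b2 was called by edgeR with all libraries. In PC the 8 h change was -0.48 (adjusted p = 0.0502), which was called by DESeq2 (-0.48), with DESeq2 size factors (-0.48) and without M0hPC replicate 3 (-0.63) or M24hPP replicate 3 (-0.48). The 24 h change in PC (-0.34) was called without M0hPC replicate 3 (-0.50). In PP the 8 h change was -0.20 (adjusted p = 0.439).

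Slco2a1 (ENSMUSG00000032548, chr9:102988712-103096002), the prostaglandin transporter, was the Slco gene higher in PP. It had 39.7, 34.1 and 69.0 CPM in fed PC and 132, 79.4 and 110 CPM in fed PP libraries. After 8 h it had 49.1, 41.9 and 64.0 CPM against 115, 81.2 and 102 CPM, and after 24 h 47.0, 63.9 and 43.3 CPM against 94.0, 100 and 115 CPM. Every PP library was above every PC library. Averaged over states the difference was 1.04 (SE 0.15, edgeR adjusted p = 0.000121), and this call was kept in every alternative. The single-state calls were not. The fed call (1.17) was lost without M0hPC replicate 1 or 2 or M0hPP replicate 1 (0.97 to 1.05, adjusted p up to 0.0547) and in a fit of only those 2 groups (adjusted p = 0.0931). The 8 h call (0.94) was lost in 9 alternatives and the 24 h call (1.0) in 10, which included leaving out M0hPP replicate 3, M8hPC replicate 1 or 2, M8hPP replicate 1 or 3, M24hPC replicate 1 or M24hPP replicate 2 at 8 h (0.80 to 0.94), and M0hPP replicate 3, M8hPC replicate 1, M8hPP replicate 3, M24hPC replicate 1 or 3 or any M24hPP replicate at 24 h (0.89 to 1.06). Sinusoidal endothelium is also known to express Slco2a1, and some markers of other cells were called higher in PP averaged over states. The 18 markers of other cells summed to 5.57, 16.4 and 56.7 CPM in the M8hPP libraries (Slco2a1 115, 81.2 and 102 CPM), and to 8.66, 35.1 and 41.8 CPM in the M24hPP libraries (Slco2a1 94.0, 100 and 115 CPM). In M8hPP the library with the lowest sum had the highest Slco2a1, and in M24hPP it had the lowest. Without the 3 marker-rich libraries the zone difference was 0.93 at 8 h (adjusted p = 0.15) and 0.87 at 24 h (adjusted p = 0.601). The part of other cell types in the Slco2a1 difference was not tested.

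The other Slco genes overlapped between the zones over the 18 libraries. Slco1a1 (chr6:141907282-141946962), a carrier of conjugated steroids and other anions, had 271, 315 and 276 CPM in M0hPC and 247, 172 and 189 CPM in M0hPP. It varied widely within groups, as in M8hPC (260, 523 and 388 CPM) and M8hPP (289, 133 and 119 CPM). Its averaged zone difference of -0.73 (adjusted p = 0.036) was lost in 15 of 24 alternatives (-0.74 to -0.64, adjusted p up to 0.153), among them the fit without the 3 marker-rich libraries (-0.64) and 12 single libraries: M0hPC replicates 2 and 3, M0hPP replicates 2 and 3, M8hPC replicates 2 and 3, M8hPP replicates 2 and 3, M24hPC replicates 1 and 2 and M24hPP replicates 1 and 2. Slco3a1, which also takes prostaglandins, was lower in PP at a low level (0.882 to 1.54 CPM as PC group means, 0.394 to 0.703 CPM as PP group means). Its averaged difference of -1.15 (SE 0.23, adjusted p = 0.00144) was kept in every alternative. Its 8 h call (-1.46) was lost without M8hPC replicate 1 or 2 or M8hPP replicate 1 or 2 (-1.5 to -1.25) and in a fit of only those 2 groups (adjusted p = 0.115).

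Slco1a4 and Slco2b1 differed between feeding states. Both called changes of Slco1a4 involve the 8 h libraries, which were taken at another clock hour. Fasting time and clock hour cannot be told apart in them. Slco1a4 (chr6:141805440-141856199), a carrier of digoxin and other bulky compounds, had 119, 105 and 149 CPM in M0hPC, 60.3, 65.0 and 83.2 CPM in M8hPC and 96.8, 138 and 254 CPM in M24hPC. The 8 h PC libraries were all lower than those of the other states. The fall at 8 h (-0.84, edgeR adjusted p = 0.0486) was lost in 16 of 24 alternatives (-0.98 to -0.69), among them all M0hPC, M0hPP and M8hPC replicates, M8hPP replicate 2, M24hPC replicate 2, all M24hPP replicates and the 3 marker-rich libraries together (-0.84). The rise from 8 h to 24 h was 1.23 (SE 0.27, adjusted p = 0.0104) and was lost without M8hPC replicate 1 (1.12, adjusted p = 0.0571) and in a fit of only those 2 groups (adjusted p = 0.126). In PP, Slco1a4 had group means of 110, 96.8 and 137 CPM in the 3 states, with no call. Slco2b1 (chr7:99657804-99711340), a carrier of steroid sulfates, had 154, 155 and 169 CPM in M0hPC and 118, 118 and 95.6 CPM in M24hPC, without overlap. Its fall by 0.53 (SE 0.12, adjusted p = 0.00411) was kept in every alternative. In PP it had 156, 158 and 126 CPM in fed and 136, 118 and 117 CPM in 24 h libraries, which overlapped (-0.25, adjusted p = 0.162). From 8 h to 24 h it fell by 0.53 in PP (adjusted p = 0.0135), which was lost without M8hPP replicate 2 or 3 or M24hPP replicate 2 or 3 (-0.50 to -0.46), in a fit of only those 2 groups (-0.51) and without the 3 marker-rich libraries (-0.33). The PC change of Slco2b1 from 8 h to 24 h (-0.41) was also called, and was lost in 6 of 24 alternatives (-0.46 to -0.32). Slco1a6 (0.678 to 1.63 CPM as group means) was called in no contrast by edgeR with all libraries. Without M0hPP replicate 3 its PP changes at 8 h (2.23) and 24 h (1.87) were called.

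**Figure D3:**
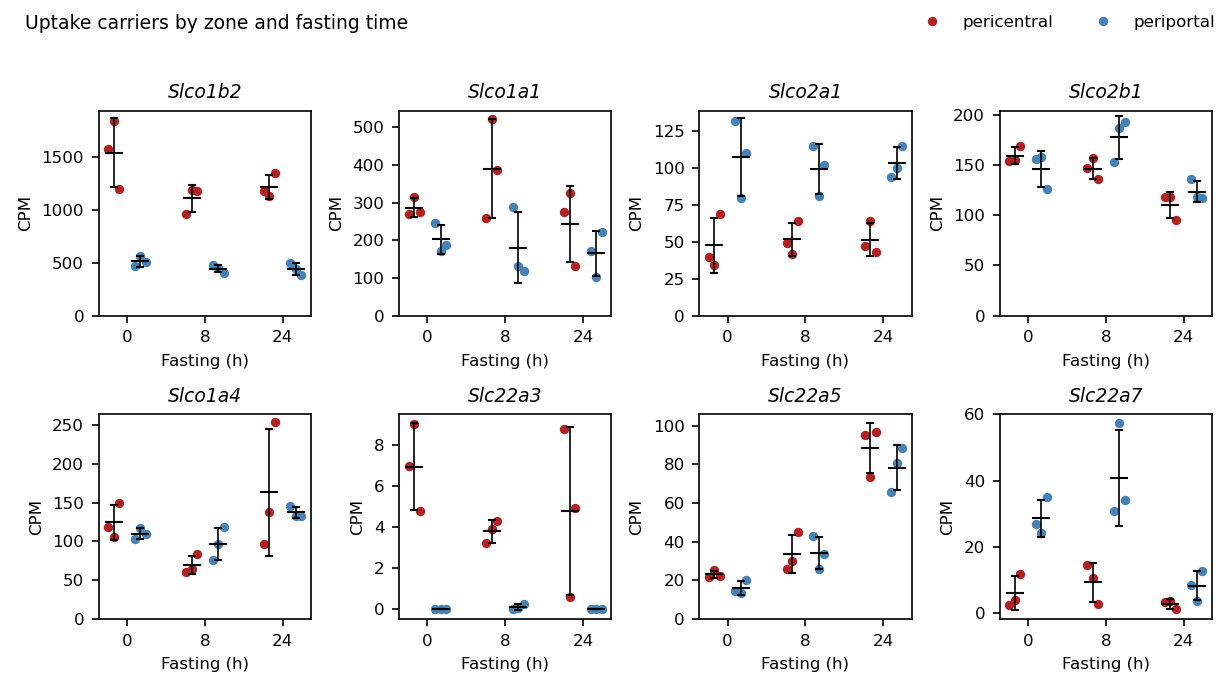
CPM per library (points, 3 per group) with group means and SD bars for 8 uptake carriers in PC and PP hepatocytes of fed, 8 h and 24 h fasted mice. PC points of Slco1b2 and Slc22a3 stand above PP points in every state, PP points of Slco2a1 stand above PC points, and Slc22a5 points climb with fasting time in both zones.

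Of the 5 tested organic cation and carnitine carriers, 3 were lower in PP averaged over states and 0 were higher, beside 9.96% and 10.3% of all genes. Slc22a3 (organic cation transporter 3, ENSMUSG00000023828, chr17:12418960-12507704), which carries monoamines, had few or no counts in PP libraries. Its fed PC libraries had 6.95, 9.02 and 4.79 CPM, its 8 h PC libraries 3.20, 3.91 and 4.29 CPM and its 24 h PC libraries 8.75, 0.588 and 4.94 CPM. All fed and all 24 h PP libraries had a count of 0, and the 8 h PP libraries had 0, 0.0889 and 0.280 CPM. With 3 counts per library as the limit that a count of 0 allows, Slc22a3 was at least 58.7-fold higher in PC in fed mice and at least 33.2-fold higher after 24 h. These limits cover counting error only. The library at 0.588 CPM is M24hPC replicate 2, which was also low in Glul. The zone was called in every state (edgeR adjusted p = 0.0022, 0.0159 and 0.00766). The 8 h call was lost without M8hPP replicate 2 (adjusted p = 0.0764), and the 24 h call in a fit of only those 2 groups (0.201) and without the 3 marker-rich libraries (0.354). Slc22a3 shares 8.69% of its 31-base words with Plg, a highly expressed gene that overlaps it on the other strand. Whether the counting used strand is not given in the sources used here.

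On chromosome 11 Slc22a5, Slc22a21 and Slc22a4 follow each other with gaps of 58.3 kb and 2.79 kb.

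Slc22a5 (OCTN2, ENSMUSG00000018900, chr11:53864542-53891660), the plasma membrane carnitine carrier, had the largest called 24 h rise of the members in both zones. In PC it had 21.6, 25.2 and 22.4 CPM in fed, 25.9, 30.2 and 44.9 CPM in 8 h and 95.4, 73.3 and 96.6 CPM in 24 h libraries. In PP it had 14.6, 13.7 and 20.3 CPM, then 42.8, 25.9 and 33.8 CPM, then 65.5, 80.9 and 88.5 CPM. The 24 h libraries were above all fed and 8 h libraries of their zone. The 24 h change over fed was 1.94 (SE 0.22, edgeR adjusted p = 2.67e-05) in PC, a 3.84-fold rise, and 2.27 (SE 0.22, adjusted p = 8.06e-06) in PP, a 4.83-fold rise. Both were kept in every alternative. The 8 h change was 1.08 (adjusted p = 0.00397) in PP and 0.55 (adjusted p = 0.109) in PC. The rise from 8 h to 24 h in PP (1.2) was lost without the 3 marker-rich libraries (0.92, adjusted p = 0.287). The difference between zones was 0.33 for 24 h (95% interval -0.26 to 0.93) and 0.53 for 8 h (-0.07 to 1.13), neither of them called. The zones overlapped in level, with an averaged difference of -0.22 (adjusted p = 0.249).

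Slc22a4 (OCTN1, chr11:53983123-54028090), the ergothioneine carrier, was lower in PP averaged over states. It had 2.94, 4.92 and 4.28 CPM in fed PC and 1.11, 1.92 and 2.35 CPM in fed PP libraries. After 8 h the zones overlapped (3.03, 4.6 and 4.76 CPM against 3.88, 3.73 and 4.47 CPM), and after 24 h they did not (5.20, 3.79 and 5.14 CPM against 3.07, 2.04 and 1.75 CPM). In PP it rose at 8 h by 1.16 (SE 0.29, edgeR adjusted p = 0.0125), a call lost without M0hPP replicate 1 (0.91, adjusted p = 0.0658). The zone difference in that change was 1.13 (95% interval 0.35 to 1.91, adjusted p = 0.909 over all genes). The averaged zone difference of -0.75 (adjusted p = 0.00332) was lost without the 3 marker-rich libraries (adjusted p = 0.0573). The fed zone call (-1.16) was lost without M0hPC replicate 2 or 3 or M0hPP replicate 1 (-1.12 to -0.92). The 24 h zone call (-1.05, adjusted p = 0.0491) was lost in 17 of 25 alternatives (adjusted p up to 0.794). These included leaving out M0hPC replicate 2 or 3, M0hPP replicate 2, M8hPC replicate 2 or 3, any M8hPP replicate, M24hPC replicate 1 or 3 or M24hPP replicate 2 or 3 (-1.05 to -0.89), and the 3 marker-rich libraries together (-0.61). With the replicate number as a block among the 24 h libraries, where deviations of equal numbers correlated weakly (0.121 to 0.165), it was -1.05 with edgeR adjusted p = 0.0768. Slc22a21, the carnitine carrier between Slc22a5 and Slc22a4, stayed below the level at which values are given here, and Slc22a5 shares 35.8% of its 31-base words with it.

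Organic anion carriers of the Slc22a family included members with large zone differences in both directions. Slc22a7 (OAT2, ENSMUSG00000067144, chr17:46432183-46438457), a basolateral anion carrier, was the family member higher in PP. It had 26.9, 24.2 and 35.0 CPM in fed PP and 2.49, 4.02 and 12.0 CPM in fed PC libraries. After 8 h it had 30.9, 57.3 and 34.2 CPM against 14.5, 10.6 and 2.82 CPM, and after 24 h 8.55, 3.78 and 12.8 CPM against 3.44, 3.82 and 1.19 CPM. The zones were apart in fed and 8 h libraries and overlapped at 24 h. Averaged over states the difference was 1.97 (SE 0.38, edgeR adjusted p = 0.00209), kept in every alternative, while by state it was 2.23 (adjusted p = 0.0505), 2.14 (0.0591) and 1.54 (0.284). In PP the change from 8 h to 24 h was -2.29 (SE 0.64, adjusted p = 0.0468), which was lost in 17 of 24 alternatives (-2.75 to -1.93). These included leaving out M0hPC replicate 2, any M0hPP replicate, M8hPC replicate 2, any M8hPP replicate, M24hPC replicate 1 or 2 or any M24hPP replicate, and the 3 marker-rich libraries together (adjusted p = 0.433).

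Slc22a26 to Slc22a30 are rodent organic anion carriers in a row on chromosome 19, with gaps of 61.7, 96.2, 28.2 and 116.0 kb. Slc22a27 (chr19:7864388-7966027) had 5.81, 2.56 and 2.18 CPM in fed PC and 0.330, 0.160 and 0.110 CPM in fed PP libraries. Over all states its lowest PC library (0.662 CPM) was above its highest PP library (0.582 CPM). The fed zone difference was -4.12 (SE 0.61, edgeR adjusted p = 0.000358) and the averaged one -2.83 (SE 0.34, adjusted p = 1.14e-05), both kept in every alternative. The 8 h call (-2.31) was lost without M8hPC replicate 3, M8hPP replicate 1 or M8hPP replicate 3 and without the 3 marker-rich libraries (-2.32), and at 24 h the adjusted p was 0.0516. The 24 h difference (-2.07) was called without M24hPC replicate 2 (-2.47), whose 0.662 CPM was the lowest PC value. Slc22a29, which shares 38.7% of its 31-base words with Slc22a27, had 2, 1 and 2 counts over the 3 PP libraries of the 3 states and 85, 47 and 24 counts in PC. The PC to PP ratio was 40.6 in fed mice (95% exact counting interval 10.9 to 341), 45.0 after 8 h (7.69 to 1810) and 10.5 after 24 h (2.6 to 91.4). These intervals cover counting error only, and the PC libraries were uneven (64.4, 12.9 and 7.6 counts in fed, 8.06, 0 and 16.1 counts after 24 h). The zone difference of Slc22a29 averaged over states was called lower in PP and kept in every alternative. By state, edgeR with all libraries called it in fed mice but not at 8 h or 24 h, while DESeq2 called it at 8 h. The fed call was lost without M0hPC replicate 1 or M0hPP replicate 1 or 3 (adjusted p up to 0.139).

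Slc22a28 and Slc22a30 fell with fasting in both zones. Slc22a30 (ENSMUSG00000052562, chr19:8335371-8405111) was the most expressed gene of the cluster. It had 198, 231 and 164 CPM in fed, 118, 162 and 161 CPM in 8 h and 94.8, 120 and 88.0 CPM in 24 h PC libraries. In PP it had 204, 171 and 233 CPM, then 163, 137 and 144 CPM, then 83.6, 67.2 and 80.8 CPM. Fed and 24 h libraries did not overlap in either zone, and PC and PP overlapped in fed and 8 h libraries. The 24 h change was -0.97 (SE 0.16, edgeR adjusted p = 0.000506) in PC and -1.39 (SE 0.16, adjusted p = 3.14e-05) in PP, both kept in every alternative. The further fall from 8 h to 24 h was called in both zones. In PP (-0.94) the call was lost without the 3 marker-rich libraries (adjusted p = 0.213). In PC (-0.54) it was lost in 12 of 24 alternatives, which were leaving out M0hPP replicate 1, M8hPC replicate 2 or 3, M8hPP replicate 2 or 3, M24hPC replicate 1 or 3, M24hPP replicate 1 or 3 or the 3 marker-rich libraries together, the replicate block and a fit of only those 2 groups (-0.55 to -0.45). The difference between the 24 h changes of the zones was -0.42 (95% interval -0.87 to 0.03, adjusted p = 0.704).

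Slc22a28 (chr19:8062209-8131982) had 11.1, 9.06 and 9.50 CPM in fed PC, 6.84, 18.6 and 11.7 CPM in 8 h PC and 4.38, 3.05 and 2.17 CPM in 24 h PC libraries. In PP it had 4.83, 4.39 and 5.51 CPM, then 4.56, 1.87 and 1.63 CPM, then 1.34, 0.499 and 1.33 CPM. Both its zone and its fasting differences were called. The averaged zone difference was -1.61 (SE 0.25, adjusted p = 0.000201), kept in every alternative, and the 8 h zone difference -2.19 (adjusted p = 0.00378) was lost in a fit of only those 2 groups (0.0787). By 24 h it changed by -1.62 in PC (adjusted p = 0.00994), lost without M24hPC replicate 3 (-1.41, 0.0501), and by -2.24 in PP (adjusted p = 0.00334), lost without the 3 marker-rich libraries (-1.87, 0.135). Slc22a28 shares 67.0% of its 31-base words with Slc22a30, and the split of reads between them is uncertain. Slc22a26 was called in no contrast by edgeR with all libraries, while DESeq2 called it lower in PP in fed mice (-1.73) and averaged over states (-0.93).

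Of the other Slc22a genes, Slc22a23 and Slc22a15 were higher in PC and Slc22a18 was not called by edgeR with all libraries. Slc22a23, an orphan member, had 125, 110 and 122 CPM in fed PC and 81.2, 77.0 and 58.4 CPM in fed PP libraries, without overlap. Its averaged zone difference was -0.63 (SE 0.11, edgeR adjusted p = 0.00038), kept in every alternative. In M8hPC it had 79.7, 68.4 and 74.5 CPM, below every fed PC library. That change of -0.68 (adjusted p = 0.0191) was lost without M0hPC replicate 1 or 3 or M8hPC replicate 2 or 3 (-0.68 to -0.62). The fed zone call of Slc22a23 (-0.72) was lost without M0hPC replicate 1 or 3 or M0hPP replicate 3 (-0.71 to -0.6), and its 24 h call (-0.72) without M24hPC replicate 1 or 3 or M24hPP replicate 2 or 3 (-0.68 to -0.62), without the 3 marker-rich libraries (-0.45) and in a fit of only those 2 groups (-0.72). Slc22a15 had group means of 8.50 to 11.4 CPM in PC and 6.52 to 7.82 CPM in PP, with an averaged difference of -0.42 (SE 0.08, adjusted p = 0.0016) kept in every alternative. Its fed call (-0.58) was lost without M0hPC replicate 2 or 3 or M0hPP replicate 1 (-0.57 to -0.47). Its 8 h call (-0.54) was lost without M8hPC replicate 2 or 3, M8hPP replicate 1 or 3 or the 3 marker-rich libraries (-0.53 to -0.49) and in a fit of only those 2 groups. Slc22a18, from an imprinted region, had 63.0 to 107 CPM over the 18 libraries.

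P-glycoprotein is encoded by Abcb1a and Abcb1b in mice. Averaged over states, Abcb1a was higher in PP (1.36) and Abcb1b was higher in PC, while neither was called between zones at 24 h. Abcb1a (ENSMUSG00000040584, chr5:8660077-8748575) exports many drugs and had 7.19, 10.8 and 5.96 CPM in fed PC and 25.6, 21.1 and 18.7 CPM in fed PP libraries. After 8 h it was lower in both zones, with 1.39, 2.33 and 3.44 CPM in PC and 7.19, 8.98 and 15.6 CPM in PP. After 24 h it had 9.14, 8.31 and 11.7 CPM in PC and 12.0, 14.1 and 14.7 CPM in PP. The zones did not overlap within any state. PP exceeded PC by 1.45 (SE 0.30, adjusted p = 0.00573 by edgeR) in fed mice and 2.14 (SE 0.33, adjusted p = 0.000809) after 8 h, both kept in every alternative, and 0.49 (adjusted p = 0.445) after 24 h.

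Abcb1a was lower at 8 h than in fed mice in both zones. In PC it fell by 1.73 at 8 h (SE 0.33, edgeR adjusted p = 0.00219) and rose again by 2.01 from 8 h to 24 h (SE 0.33, adjusted p = 0.00169), both kept in every alternative. At 24 h it differed from fed PC by 0.28 (adjusted p = 0.554). In PP it fell by 1.04 at 8 h (adjusted p = 0.0253), which was lost without M0hPP replicate 1 or 2 or M8hPP replicate 1 or 2 (-1.07 to -0.82), in a fit of only those 2 groups and with no filter on low counts. The 8 h libraries differ from the others in clock hour, and fasting time and clock hour cannot be told apart here. The zone difference in the 24 h change was -0.97 (95% interval -1.78 to -0.15, adjusted p = 0.6 over all genes). Abcb1b (chr5:8798147-8866315) had 1.38, 2.17 and 1.44 CPM in fed PC and 0.536, 0.519 and 0.147 CPM in fed PP libraries. Its averaged difference was -1.77 (SE 0.28, adjusted p = 0.000179), kept in every alternative. The fed call of Abcb1b (-2.05) was lost without M0hPC replicate 2 (-1.82) or M0hPP replicate 3 (-1.65), and the 8 h call (-2.20) in a fit of only those 2 groups. The Abcb1a transcript shares 21.7% of its 31-base words with Abcb1b.

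Abcb4 (ENSMUSG00000042476, chr5:8893717-8959231) moves phosphatidylcholine into bile and lies 27.4 kb from Abcb1b. It had 213, 197 and 177 CPM in fed PC, 236, 244 and 262 CPM in 8 h PC and 308, 254 and 324 CPM in 24 h PC libraries. In PP it had 133, 115 and 150 CPM, then 233, 199 and 177 CPM, then 199, 209 and 277 CPM. Fed libraries were lower than fasted ones in both zones, and the PC libraries were higher than PP ones in fed and 8 h mice. The 24 h change was 0.59 (SE 0.14, edgeR adjusted p = 0.00725) in PC, kept in every alternative, and 0.78 (SE 0.14, adjusted p = 0.00124) in PP, lost without the 3 marker-rich libraries (0.58, adjusted p = 0.0819). The 8 h change in PP was 0.62 (adjusted p = 0.00879), kept in every alternative. The averaged zone difference was -0.40 (SE 0.08, adjusted p = 0.00201), also kept in every alternative. The fed zone call (-0.56) was lost without M0hPC replicate 1 or 2 or M0hPP replicate 1 or 2 (-0.56 to -0.47).

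**Figure D4:**
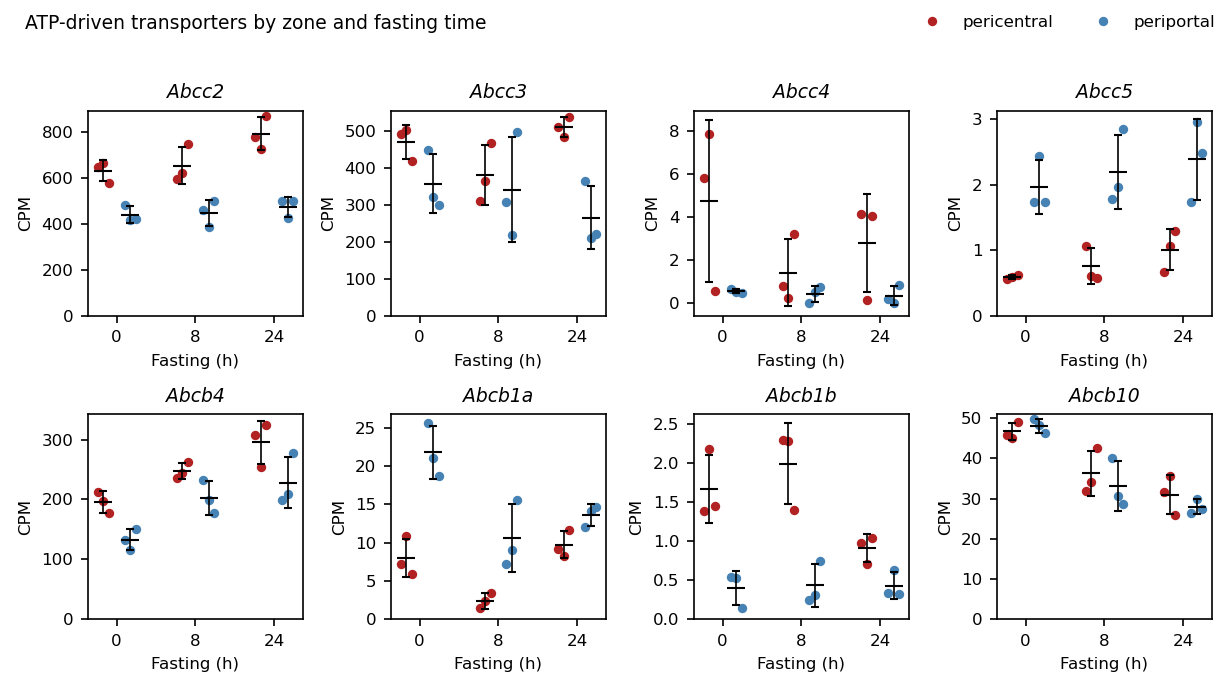
CPM per library (points, 3 per group) with group means and SD bars for 8 ATP-driven transporters in PC and PP hepatocytes of fed, 8 h and 24 h fasted mice. PC points of Abcb1a are lowest at 8 h, Abcb4 points are higher after fasting, and PC points of Abcc2 and PP points of Abcc5 stand above the other zone in every state.

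Of the mitochondrial and lysosomal Abcb genes, 2 of 5 were called between zones averaged over states, beside 20.3% of all genes. Abcb10 (ENSMUSG00000031974, chr8:123952459-123983122), of the inner mitochondrial membrane and linked to heme synthesis, had 45.9, 45.1 and 49.1 CPM in fed and 31.6, 35.5 and 25.8 CPM in 24 h PC libraries. In PP it had 49.8, 48.2 and 46.4 CPM and 26.5, 30 and 27.3 CPM. Fed libraries were above 24 h libraries in both zones, while the zones overlapped within each state. The 24 h change was -0.59 (SE 0.14, edgeR adjusted p = 0.00504) in PC and -0.78 (SE 0.14, adjusted p = 0.000823) in PP, both kept in every alternative. The 8 h change in PP (-0.54, adjusted p = 0.0133) was lost without M0hPP replicate 1 or M8hPP replicate 2 or 3 and without the 3 marker-rich libraries (-0.51 to -0.44). Abcb9 had group means of 2.57 to 3.32 CPM in PC and 1.79 to 2.04 CPM in PP, an averaged difference of -0.54 (SE 0.13, adjusted p = 0.00605) kept in every alternative. Abcb6, a porphyrin transporter, differed by -0.22 (adjusted p = 0.0162), which was lost without the 3 marker-rich libraries (-0.20, adjusted p = 0.135). Abcb6 shares 52.1% of its 31-base words with Gm29253, which overlaps it on the same strand. Abcb8 was called in no contrast.

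Of the 8 Abcc export pumps, 3 were lower and 1 was higher in PP averaged over states, beside 9.96% and 10.3% of all genes. Of the 48 pairs of a pump and a comparison of feeding states edgeR called 0, where 7.46% to 21.8% of all genes were called in each such comparison. At an unadjusted p under 0.05 there were 4 such pairs, and DESeq2 called 1 (Abcc2 at 24 h in PC). Abcc2 (MRP2, ENSMUSG00000025194, chr19:43782192-43840740) exports bilirubin glucuronides and other conjugates into bile. It had 649, 665 and 579 CPM in fed PC and 483, 417 and 422 CPM in fed PP libraries. After 8 h it had 594, 621 and 747 CPM against 460, 387 and 498 CPM, and after 24 h 780, 728 and 870 CPM against 501, 424 and 499 CPM. No PP library reached any PC library. The averaged zone difference was -0.60 (SE 0.07, edgeR adjusted p = 1.33e-05), kept in every alternative. By state it was -0.52, -0.55 and -0.74. The fed call was lost without M0hPC replicate 1 or 2 or M0hPP replicate 2 or 3 (-0.50 to -0.48, adjusted p up to 0.0654), the 8 h call without M8hPC replicate 3 or M8hPP replicate 2 (-0.45) and in a fit of only those 2 groups (0.116), and the 24 h call without the 3 marker-rich libraries (-0.66, 0.244).

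Abcc5 (ENSMUSG00000022822, chr16:20331303-20426394), which exports cyclic nucleotides and conjugates, was the pump higher in PP. It had 0.553, 0.591 and 0.623 CPM in fed PC and 1.73, 2.44 and 1.73 CPM in fed PP libraries. After 8 h it had 1.07, 0.605 and 0.580 CPM against 1.78, 1.96 and 2.84 CPM, and after 24 h 0.664, 1.07 and 1.29 CPM against 1.73, 2.95 and 2.48 CPM. All PP libraries were above all PC libraries. The 18 markers of other cells summed to 5.57, 16.4 and 56.7 CPM in the M8hPP libraries (Abcc5 1.78, 1.96 and 2.84 CPM). In M24hPP they summed to 8.66, 35.1 and 41.8 CPM (Abcc5 1.73, 2.95 and 2.48 CPM). In M0hPP they summed to 19.2, 19 and 25.1 CPM (Abcc5 1.73, 2.44 and 1.73 CPM), and in PC libraries to 5.43 to 20.5 CPM. The part of other cell types in the Abcc5 difference was not tested. PP exceeded PC by 1.73 (SE 0.33, adjusted p = 0.00313 by edgeR) in fed mice and 1.51 (SE 0.19, adjusted p = 1.83e-05) averaged, both kept in every alternative. At 8 h (1.54) the call was lost in a fit of only those 2 groups (adjusted p = 0.0788) and without the 3 marker-rich libraries (1.31). At 24 h (1.26) it was lost in 8 alternatives, among them M24hPC replicate 1 or 2 and M24hPP replicate 2 or 3 (1.03 to 1.31), the 3 marker-rich libraries (0.79) and the replicate block among the 24 h libraries (1.27, adjusted p = 0.0779).

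Abcc3 and Abcc4 are basolateral pumps that return conjugates to blood. Abcc3 (chr11:94343295-94392997) had 491, 504 and 418 CPM in fed PC and 449, 322 and 301 CPM in fed PP libraries, which overlapped. At 24 h the zones did not overlap (512, 483 and 537 CPM against 364, 211 and 221 CPM), with a difference of -0.95 (SE 0.27, edgeR adjusted p = 0.0615). Over 25 alternatives it lay between -1.24 and -0.49 (adjusted p from 0.0075 to 0.712). It was called in 5 of them, including the replicate block among the 24 h libraries (-0.99). The averaged difference was -0.50 (adjusted p = 0.0299). It was lost in 8 alternatives, which were leaving out M0hPC replicate 2, M0hPP replicate 2 or 3, M8hPC replicate 3, M24hPC replicate 3 or M24hPP replicate 2 or 3 (-0.49 to -0.45, adjusted p up to 0.0625) and no filter on low counts. Abcc4 (chr14:118482692-118706219) was uneven among PC libraries: 5.81, 7.84 and 0.545 CPM in M0hPC, 0.778, 0.233 and 3.17 CPM in M8hPC, and 4.14, 0.147 and 4.05 CPM in M24hPC. PP libraries had 0 to 0.828 CPM. The averaged difference of Abcc4 was -2.67 (SE 0.78, adjusted p = 0.0269), and 5 single libraries each ended the call when left out: M0hPC replicate 2, M0hPP replicate 3, M8hPC replicate 3, M24hPC replicate 1 and M24hPP replicate 1 (-2.63 to -2.19). The call was also lost with no filter on low counts and without the 3 marker-rich libraries (-3.24). At 24 h the difference was -3.04 (adjusted p = 0.292), and among 25 alternatives (-5.14 to -2.42, adjusted p up to 0.789) the replicate block among the 24 h libraries gave a call (-3.19). The M24hPC library at 0.147 CPM is replicate 2, which was also low in Glul.

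Abcc6 (chr7:45967555-46030302), a hepatocyte pump known for its role in ATP release, had 115 to 153 CPM in PC and 105 to 155 CPM in PP libraries. Its averaged zone difference was -0.08 (95% interval -0.22 to 0.06), and its 24 h changes were -0.09 in PC and -0.19 in PP. Abcc1, Abcc10 and Abcc12 were called in no contrast. The sulfonylurea receptor Abcc9, a potassium channel subunit of vessel walls, was also called in no contrast by edgeR with all libraries. Its averaged difference (1.39) was called by DESeq2 (1.40), with the replicate block (1.41) and without M8hPP replicate 1 (1.55) or M24hPC replicate 3 (2.16). The gene had at most 1.12 CPM except in M8hPP replicate 3, the library with most counts of non-hepatocyte markers, where it had 2.14 CPM.

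Carriers outside the rule were described from a list of 14, of which 13 were tested. Averaged over states 3 were higher in PP (Slc51b, Slc10a2, Abcb11) and 4 lower (Slc47a1, Slc29a1, Abcg8, Abcg2), beside 10.3% and 9.96% of all genes. Abcb11, the canalicular bile salt pump, had a zone difference of 0.32 (edgeR adjusted p = 0.0193), opposite in sign to that of Abcc2 and Abcb4. It rose at 8 h by 0.56 in PC and 1.01 in PP and fell by 24 h by 0.58 in PC and 0.61 in PP. At 24 h against fed, 1 of the 13 rose and 4 fell in PC (beside 21.8% of all genes called), and 1 rose and 4 fell in PP (beside 19.6%). Abcg8, of the sterol exporter, was the gene that rose in both zones (1.07 in PC and 1.22 in PP). The bile salt uptake carrier Slc10a1 was not called between zones averaged over states (0.07) or at 24 h (0.11 in PC and 0.12 in PP).

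Regulators of the carriers were described from a list of 14, all tested. Averaged over states 1 was higher in PP (Nr0b2) and 4 were lower (Nr1i3, Ahr, Keap1, Ppara), beside 10.3% and 9.96% of all genes. Ahr, the aryl hydrocarbon receptor, differed by -2.56 (SE 0.25) and Nr1i3, the constitutive androstane receptor, by -1.26 (SE 0.15). At 24 h against fed 3 rose in PC (Nr1i2, Ppara, Hnf4a) and 1 fell (Nfe2l2), and 4 rose in PP (Nr1i3, Nr1i2, Ppara, Hnf4a) and 2 fell (Onecut1, Nfe2l2), beside 21.8% of all genes called in PC and 19.6% in PP. Nr1i2, the pregnane X receptor, rose by 1.03 in PC and 0.89 in PP. Ppara, the fatty acid-sensing receptor, rose by 0.96 and 0.84.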

How the data were processed

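RNA-seq libraries of pericentral and periportal hepatocytes in 3 feeding states (6 groups of 3) were analysed from estimated counts per Ensembl gene, deposited by the authors as 1 table. Per the submitters' processing notes, kallisto 0.46.0 and mm10 were used. The annotation, trimming and use of strand are not given in the sources used here. Between 67.5% and 70.5% of a library's values were whole numbers, and the estimated counts were rounded before testing. Symbols were found for 27566 of 28030 identifiers, and 464 had none.

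Genes passing edgeR's filterByExpr (12477) were fitted with edgeR 4.0.16 (R 4.3.3) by robust quasi-likelihood, TMM scaling and 1 coefficient per group over all 18 libraries, and Benjamini-Hochberg adjusted p-values were taken over all tested genes at 0.05. All p-values in the text are from this fit unless another setting is named. Standard errors are the log2 fold change divided by the square root of F, and 95% intervals are 1.96 standard errors to each side. The fit was tested on simulated counts. Alternatives were DESeq2 size factors, no filter beyond 1 count, only the groups compared, a replicate block, DESeq2 1.42.0, and each library left out. A fit without 3 marker-rich libraries and a block within the 24 h zone comparison were added after seeing the data. Coordinates are from GENCODE and promoters from RefSeq, both on GRCm38. Shared 31-base words are counted between transcripts, and reads of such genes may have been split between them.

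The members and the gene lists were chosen with earlier results of these data known. Values are given for a fixed set of main carriers and for called members with a group mean of at least 1 CPM. Labels do not say whether equal replicate numbers share a mouse. Deviations from group means of equally numbered PC and PP libraries correlated by 0.121, 0.165 and 0.147 at 24 h. In the other states they correlated by -0.0112 to 0.0705. The 18 pairs of PC and PP libraries of the same state with unequal numbers correlated by -0.121 to 0.0577. The block at 24 h was added for that reason, but these weak correlations do not show that equal numbers share a mouse. Of 18 libraries, 9 correlated best with their own number in the other zone. Results for some members are not reported here.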

Additional observations from a re-analysis of the deposited data

How the results depend on the processing

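Of 88 calls of a member in a comparison, 41 were kept in all alternatives run, 47 were lost in at least 1 and 0 changed direction. In a fit of only the groups compared, the members called numbered 7 at 8 h and 4 at 24 h between zones, and 3 in PC and 2 in PP between 24 h and 8 h. Without the 3 marker-rich libraries they numbered 1 between zones at 24 h, 3 between 24 h and fed PP and 0 between 24 h and 8 h PP. With single libraries left out, the zone counts were 8 to 15 in fed, 9 to 13 in 8 h and 4 to 9 in 24 h libraries and 19 to 23 averaged. The PC counts were 1 to 4 (8 h over fed), 7 to 8 (24 h over fed) and 4 to 7 (24 h over 8 h), and the PP counts 2 to 7, 5 to 6 and 2 to 5. The zone differences in the fasting change stayed at 0 to 0.

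The libraries that moved a count by over 1.5 times were, for the fed zone comparison, M0hPC replicates 1 and 2 and M0hPP replicate 1 (9, 8 and 9 calls), and for the 24 h zone comparison M24hPC replicate 1, M24hPP replicate 2 and M24hPP replicate 3 (4 calls each) and M24hPC replicate 3 (5 calls). For 8 h over fed they were M0hPC replicate 1 (1 call), M0hPC replicate 2 and M8hPC replicates 2 and 3 (2 calls each), M0hPP replicate 1 (2 calls) and M8hPP replicate 2 (3 calls). For 24 h over 8 h in PP they were M8hPP replicates 2 and 3 and M24hPP replicates 2 and 3 (2 calls each). The cause was not tested.

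With the replicate number as a block over all libraries 83 of the 88 calls were kept. The block ended the calls of Slc22a4 between zones at 24 h (-1.04), Slco1a1 averaged (-0.74), Slc22a30 between 24 h and 8 h PC (-0.54), Slc22a21 at 24 h in PP (1.29) and Slc22a7 between 24 h and 8 h PP (-2.32). With 3 libraries a group and few counts, differences of members under about 1 CPM were the least precise.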
